A study of Mus musculus with 12 samples.

Results

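The integrin and laminin subunits measured here were all genes of the count files whose symbols have the form of an integrin alpha, an integrin beta or a laminin chain gene, leaving out Itgam and Itgax, with at least 10 counts summed over the 12 libraries. The name pattern matched 37 of 48576 listed genes. After Itgam and Itgax were left out, 35 remained, and none of them was under the count minimum. They comprise 16 integrin alpha, 8 integrin beta, 5 laminin alpha, 3 laminin beta and 3 laminin gamma genes. The name pattern and count minimum use no expression difference, but the subunits were chosen with earlier results of these data known.

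Laminins are cross-shaped proteins of 1 alpha, 1 beta and 1 gamma chain that assemble into the sheet of a basement membrane, and which chains a tissue makes decides which laminins it can build. Integrins are receptors of 1 alpha and 1 beta subunit that hold cells to laminin, collagen, fibronectin or other cells and pass signals in both directions. In adult liver, basement membrane surrounds bile ducts and vessels, while hepatocytes border a looser matrix, and leukocytes and platelets bring integrin pairs of their own.

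Total RNA of mouse liver was sequenced in 12 libraries from 5 groups, to compare livers in which the growth regulator YAP or MYC was switched on with their own controls. In the YAP model, mice of genotype Col-TRE-YAPS127A; Rosa26-LSL-rtTA received AAV-TBG-Cre, a viral vector that expresses Cre recombinase from a hepatocyte promoter, at 8 to 10 weeks of age. Doxycycline then switched on YAPS127A, a form of YAP with the S127A substitution, for 2 weeks (n = 2) or 4 weeks (n = 3), and in the YAP controls (n = 2), which carry the same alleles, it was not switched on. In the MYC model, LAP-tTA; TRE-MYC mice (n = 3) expressed MYC in liver from about embryonic day 8, when doxycycline was withdrawn from the mothers, and the controls (n = 2) carried LAP-tTA alone on the same doxycycline schedule. MYC-model livers were taken 4 weeks after birth, so the 2 models differ in age as well as in transgene. The labels number the libraries of a group without saying that each comes from its own animal. The p-values set each difference against a spread between libraries estimated over all 5 groups. That spread may be technical in groups of 1 sex pattern.

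Library totals ran from 12511170 to 17690798 counts, and levels are given as CPM, counts scaled to a common library total with TMM factors. The labels name hepatocytes as the cell type and liver as the tissue. Hepatocyte markers dominated (14 genes, summed level 34374 to 127970 CPM), but markers of bile duct, myeloid, platelet and vessel wall cells were read in every group. The RNA is therefore not that of hepatocytes alone, and the markers do not tell whole tissue from a mixed cell preparation. In such RNA, fewer cells of a type and less RNA per cell cannot be told apart. Mouse Yap1 stood at 80.1 to 87.4 CPM in the 2-week livers and 65.6 to 85.8 CPM in the 4-week livers, against 81.2 to 86.5 CPM in the YAP controls, and Myc at 22.2 to 31.4 CPM in the MYC livers against 6.71 to 15.5 CPM in their controls. The species of the transgenes is not given in the sources used here, so these counts do not check the induction. Replicate 2 of the 2-week livers and all 3 4-week livers had the female pattern (29241 to 42451 counts of Xist and 3 to 22 counts of Y-linked genes). The other 8 libraries, both YAP controls among them, had the male pattern (9 to 178 counts of Xist and 2282 to 4271 of Y-linked genes). The 2-week libraries, of different pattern, therefore come from different animals, and at 4 weeks sex and YAP induction coincide in every library. Replicate 1 of the 4-week livers stood apart from the other two in its bile duct markers (18 genes summing to 779.7 CPM, against 3553 and 3780 CPM), and results that rest on it are given without it as well.

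Promoter windows were available for 21 of the 35 genes, in 24 windows of 250 bases before to 50 bases after a transcript start (RefSeq, GRCm38.p6). Windows of 4 genes are shown because the results turn on them: Lama5 and Lamb2 rose under YAP, Itga3 moved in opposite directions under YAP and MYC, and Itgb1, the highest member per kilobase, was not called in any comparison. They are written 5′ to 3′ on the gene's own strand, and capitals mark the letters GGAATG or CATTCC (the core bound by TEAD factors, the DNA-binding partners of YAP) and GGGCGG or CCGCCC (the GC box).
Lama5 (chr2:180225810-180226109, minus strand): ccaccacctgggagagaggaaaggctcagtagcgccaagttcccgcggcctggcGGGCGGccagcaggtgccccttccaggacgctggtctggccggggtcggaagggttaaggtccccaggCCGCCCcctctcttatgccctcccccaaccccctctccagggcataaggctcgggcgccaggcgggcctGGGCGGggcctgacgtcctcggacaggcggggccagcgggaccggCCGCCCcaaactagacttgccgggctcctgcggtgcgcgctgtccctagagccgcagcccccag
Lamb2 (chr9:108479612-108479911, plus strand): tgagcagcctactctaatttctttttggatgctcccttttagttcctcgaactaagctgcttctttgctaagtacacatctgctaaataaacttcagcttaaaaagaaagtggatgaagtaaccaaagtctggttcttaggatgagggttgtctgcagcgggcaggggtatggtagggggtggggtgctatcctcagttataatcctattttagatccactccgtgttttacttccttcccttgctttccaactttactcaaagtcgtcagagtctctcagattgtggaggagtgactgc
Itga3 (chr11:95076665-95076964, minus strand): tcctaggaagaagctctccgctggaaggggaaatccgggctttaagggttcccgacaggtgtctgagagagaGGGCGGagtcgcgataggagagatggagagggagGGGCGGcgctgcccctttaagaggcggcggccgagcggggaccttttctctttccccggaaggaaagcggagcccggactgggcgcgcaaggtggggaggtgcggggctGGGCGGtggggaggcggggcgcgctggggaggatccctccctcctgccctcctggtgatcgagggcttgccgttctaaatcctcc
Itgb1 (chr8:128685404-128685703, plus strand): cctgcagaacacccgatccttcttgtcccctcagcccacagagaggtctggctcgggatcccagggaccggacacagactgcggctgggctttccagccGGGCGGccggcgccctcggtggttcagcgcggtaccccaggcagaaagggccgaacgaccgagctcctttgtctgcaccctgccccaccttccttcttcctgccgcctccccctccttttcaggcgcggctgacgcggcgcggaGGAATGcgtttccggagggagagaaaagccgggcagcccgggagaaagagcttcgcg

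The Lama5 window held 4 GC boxes, the Itga3 window shown 3, the Itgb1 window 1 and the Lamb2 window none. GC content was 72.7% for Lama5, 66.7% for Itga3, 67.3% for Itgb1 and 44.0% for Lamb2, against a median of 52.7% over all promoter windows. Both strands were searched for 4 motifs, which do not overlap each other in these 4 windows. GGAATG or CATTCC was in 3 of the 24 member windows (12.5%), those of Itgb1, Itga10 and one of Lamb3, against 14.7% of 32851 promoter windows of the same length. CACGTG, the E-box that MYC and MAX bind, was in 0 of the 24, against 7.15% of all. TGANTCA, the AP-1 site, was in 2 (8.33%, against 7.81% of all), and the GC box in 11 (45.8%, against 35.7% of all). A second window of Itga3, not shown (chr11:95069149-95069448, GC content 52.3%), held 1 AP-1 site and 1 GC box. These matches describe letters in short windows, and binding was not measured.

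Of the 11 laminin chains, 5 rose and 1 fell at 2 weeks of YAP, 5 rose and 2 fell at 4 weeks, and 1 rose and 1 fell under MYC. Among the 23 tested integrin subunits, 7 rose at 2 weeks, 11 rose at 4 weeks, and 7 rose and 1 fell under MYC. In the 2-week YAP livers, 12 of the 34 tested subunits were higher than in YAP controls and 1 was lower, where 15.1% of all 17964 tested genes were called higher and 12.7% lower (27.8% in either direction). In the 4-week YAP livers, 16 were higher and 2 lower, where 18.1% of all genes were called higher and 15.7% lower (33.8% in either direction). In the MYC livers, 8 were higher and 2 lower than in MYC controls, where 9.76% of all genes were called higher and 8.56% lower (18.3% in either direction). Called means an adjusted p under 0.05 over all tested genes in edgeR's quasi-likelihood test. A subunit that is not called is not shown to be unchanged. Itgb6, an epithelial activator of latent TGF-beta, was too low to test, at 0 counts in all 5 MYC-model libraries and at most 1.06 CPM elsewhere.

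The libraries of the 2 groups did not overlap for 26 of the 34 subunits at 2 weeks, where 66.6% of all tested genes did not, for 20 at 4 weeks, against 59.9% of all genes, and for 21 under MYC, against 53.0% of all genes. Every called subunit was among them. The median log2 fold change of the 34 subunits was 1.13 at 2 weeks, 0.95 at 4 weeks and -0.07 under MYC, beside medians over all genes of 0.10, 0.18 and 0.02. Scaling by total counts in place of TMM raised the median of all genes by 0.54, 0.73 and 0.41 log2 units in the same order and gave 18 higher and 1 lower, 24 higher and 2 lower, and 10 higher and 2 lower subunits. Hepatocyte markers moved with these groups: of 14, 4 were lower at 2 weeks, 7 at 4 weeks and 5 under MYC, and none higher. Under total-count scaling 2 were higher and 2 lower at 2 weeks, 1 higher and 3 lower at 4 weeks, and 2 lower under MYC. Mitochondrial genes took 13.9% and 10.2% of the counts at 2 weeks and 7.67% to 11.7% at 4 weeks, against 19.3% and 19.6% in YAP controls, and 15.1% to 20.8% in MYC livers, against 15.0% and 15.8% in MYC controls. The part of either in the subunit levels was not tested. Both YAP times were set against the same 2 controls, so their values are given side by side. When sex pattern entered the fit, 12 of the 13 calls at 2 weeks were still made, but of the 18 calls at 4 weeks only those of Lama5 (4.27 ± 0.82, SE, adjusted p = 0.0456) and Lamb2 (3.90 ± 0.56, adjusted p = 0.0204) were. In that fit all 18 kept their direction, and the sex term rests on the 2 libraries of the 2-week group alone. Its 2-week values therefore set replicate 1, of male pattern, against the controls. They are no separate check beside leaving out replicate 2.

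**Figure D1:**
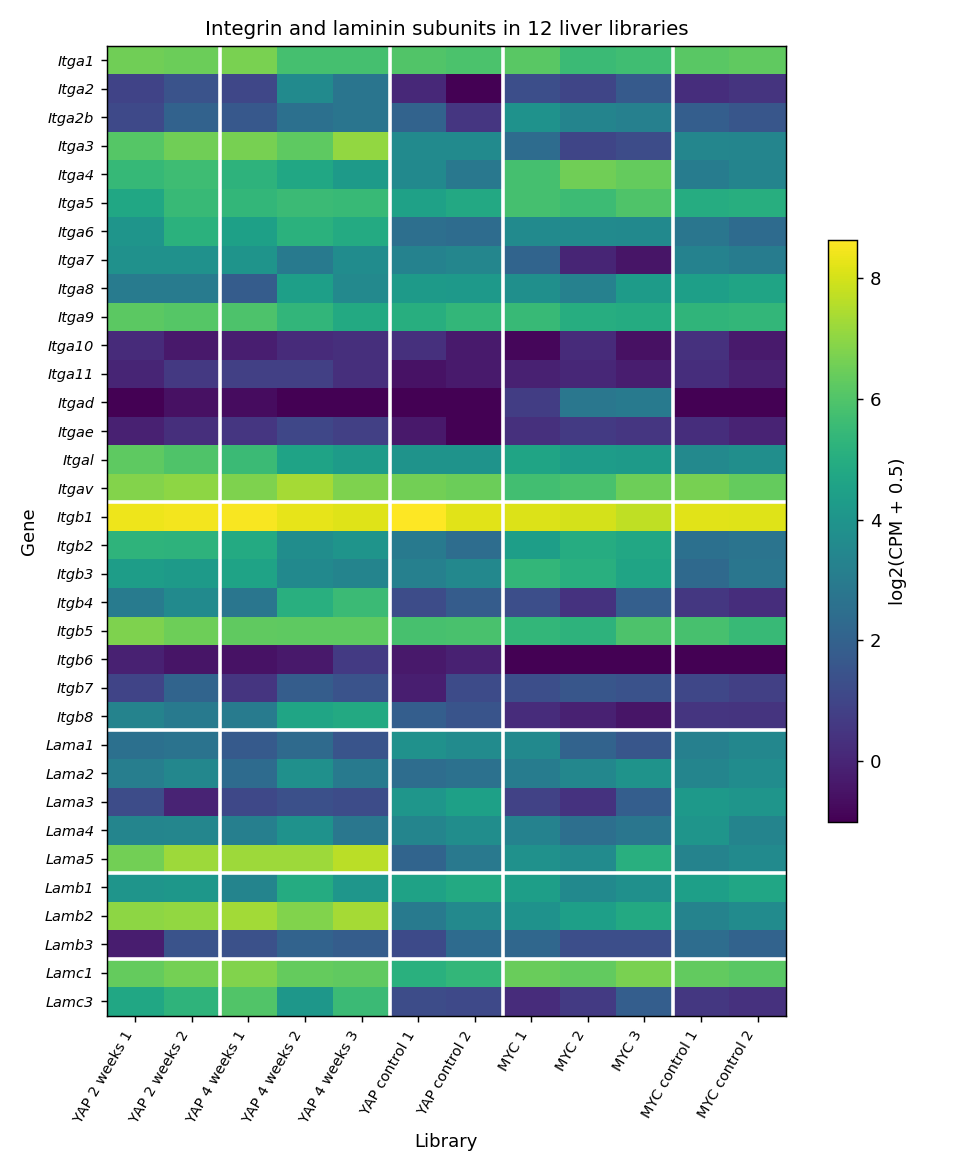
Level of each of 34 subunits (rows, grouped by subfamily with white lines between them) in each of the 12 libraries (columns, grouped by condition), as log2(CPM + 0.5), with CPM scaled by TMM factors. Itgb1 is the brightest row in every library, and Lama5 and Lamb2 are brighter in the 5 induced YAP libraries than in the other 7.

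**Figure D2:**
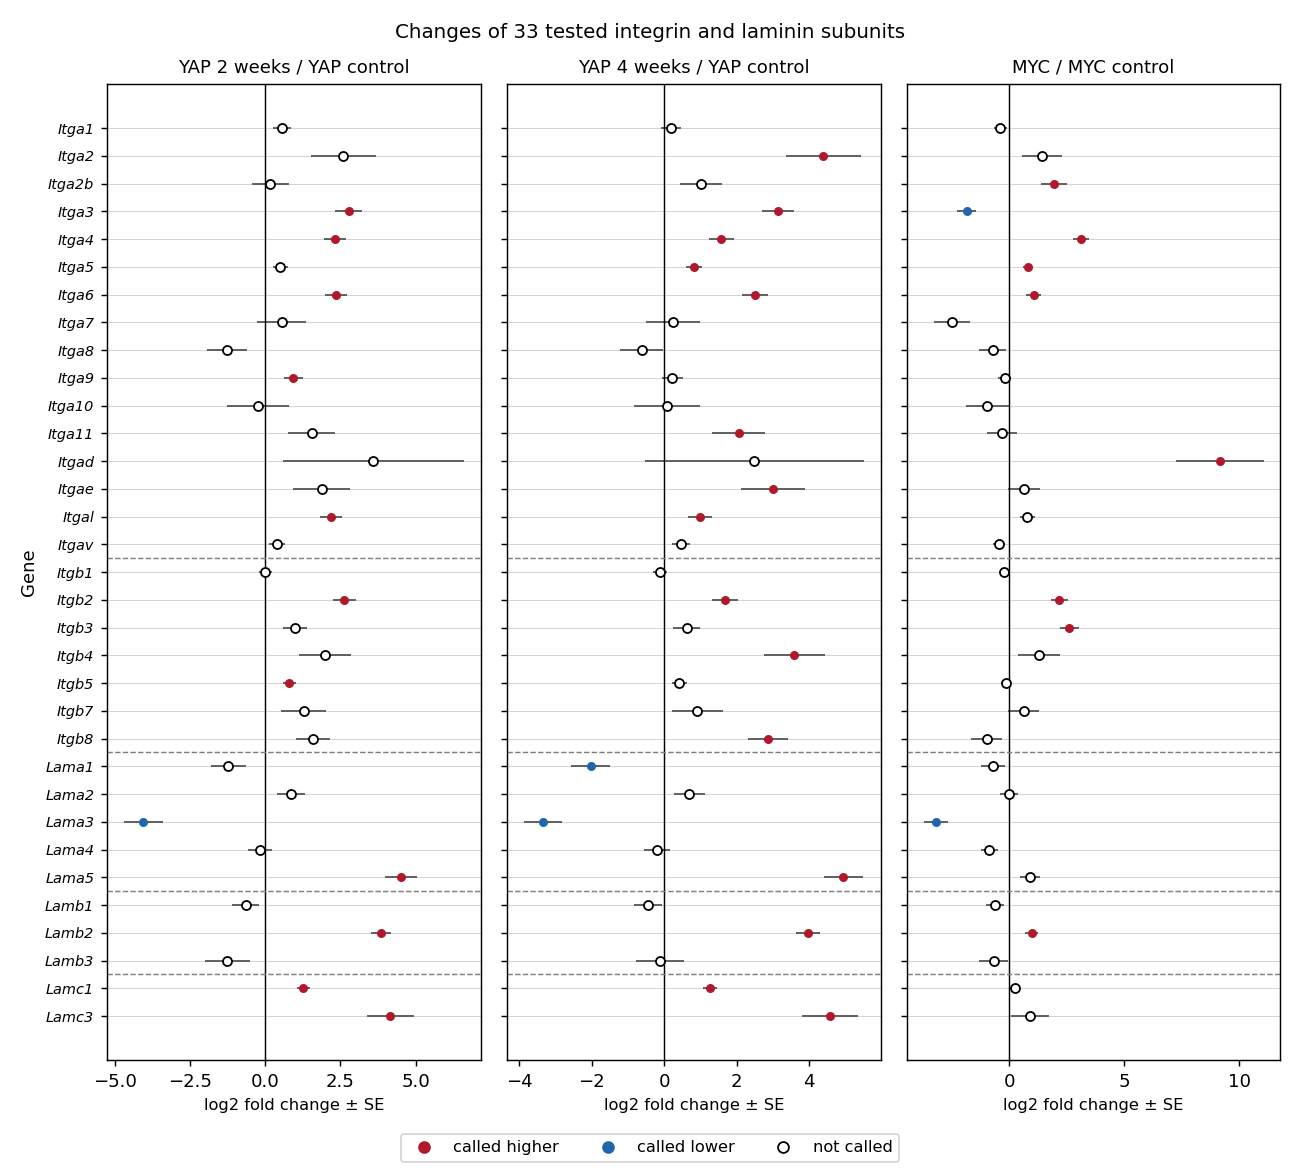
log2 fold change with its standard error for 33 tested subunits in each comparison with controls; each panel has its own horizontal scale. Filled points are called higher (red) or lower (blue), and the laminin gamma chains Lamc1 and Lamc3 are called higher in both YAP panels and not called in the MYC panel. The point of Itgad is a fitted value against controls with 0 counts and is not a fold change to be read.

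Lama5, the alpha chain of most adult epithelial and vessel basement membranes (GRCm38 chr2:180176373-180225859, minus strand), carried the largest rise among the alpha chains. It had 94.0 and 149.7 CPM in the 2-week YAP livers and 146, 148 and 197 CPM in the 4-week YAP livers, against 3.77 and 6.90 CPM in the YAP controls. Every induced library lay above both controls, by 4.52 ± 0.54 (SE) log2 units at 2 weeks (adjusted p = 0.000383) and 4.94 ± 0.53 at 4 weeks (adjusted p = 0.000186). In MYC livers Lama5 had 13.9, 11.99 and 33.0 CPM, against 9.37 and 11.5 CPM in MYC controls. The groups did not overlap, but the difference of 0.91 ± 0.44 log2 units was not called (adjusted p = 0.181).

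Lama3, the alpha chain of epithelial laminins that anchor hemidesmosomes, was the 1 subunit that fell in all 3 comparisons. Its levels were 1.84 and 0.478 CPM in the 2-week YAP livers and 1.65, 2.06 and 1.84 CPM in the 4-week YAP livers, against 16.0 and 21.9 CPM in YAP controls. In MYC livers they were 1.37, 0.841 and 3.19 CPM, against 17.7 and 15.9 CPM in MYC controls. The controls of the 2 models had similar levels, and no library of an induced group came near them. The log2 fold change of Lama3 was -4.04 ± 0.64 at 2 weeks (adjusted p = 0.00122), -3.35 ± 0.52 at 4 weeks (adjusted p = 0.000903) and -3.20 ± 0.52 under MYC (adjusted p = 0.00268). Each of these calls was also made with any 1 library of its comparison left out, but the size moved: the 2-week value was -5.27 without replicate 1 and -3.35 without replicate 2 of the 2-week livers, and the MYC value -3.90 without replicate 3 of the MYC livers. With a sex term the 2-week value was -3.36, which, like that without replicate 2, rests on replicate 1 of the 2-week livers. The 4-week value was -1.42 with that term and not called (adjusted p = 0.481).

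Lama1, the chain of embryonic basement membranes, had 5.38 and 5.80 CPM in the 2-week YAP livers and 2.79, 4.47 and 2.34 CPM in the 4-week YAP livers, against 14.1 and 12.1 CPM in YAP controls. It fell by 2.03 log2 units at 4 weeks (SE 0.53, adjusted p = 0.0136) and was lower by an uncalled -1.23 ± 0.59 at 2 weeks (adjusted p = 0.141). Without replicate 1 of the YAP controls the 4-week call was lost (adjusted p = 0.0725). In MYC livers it had 11.4, 3.72 and 2.50 CPM, against 8.66 and 10.4 CPM in MYC controls, so the groups overlapped.

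Lama2, the alpha chain of muscle and nerve, and Lama4, that of vessel walls, were called in none of the 3 comparisons. Lama2 lay between 4.70 and 14.8 CPM over all 12 libraries. Lama4 had 9.85 and 10.2 CPM in the 2-week and 8.32, 14.6 and 6.62 CPM in the 4-week YAP livers, against 9.85 and 12.7 CPM in YAP controls. In MYC livers it had 9.23, 5.26 and 6.33 CPM, against 15.6 and 9.67 CPM in MYC controls. Vascular endothelial markers (13 genes) summed to 378 to 536, 224 to 368 and 387 to 440 CPM in the 2-week, 4-week and control YAP livers, and to 265 to 367 CPM in MYC livers against 475 to 495 CPM in their controls; their part in these levels was not tested.

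Lamb2, a beta chain that can take the place of Lamb1 in the trimer (GRCm38 chr9:108479736-108490530, plus strand), had the smallest adjusted p of all subunits in both YAP comparisons. It had 126.5 and 134 CPM in the 2-week YAP livers and 156, 111 and 160.4 CPM in the 4-week YAP livers, against 7.05 and 11.03 CPM in YAP controls. The rise was 3.85 ± 0.34 log2 units at 2 weeks (adjusted p = 6.99e-05) and 3.98 ± 0.33 at 4 weeks (adjusted p = 3.71e-05). In MYC livers Lamb2 had 14.7, 21.0 and 28.1 CPM, against 9.46 and 12.01 CPM in MYC controls, a rise of 0.98 ± 0.29 log2 units (adjusted p = 0.0370). A fit of only the groups compared did not call it (adjusted p = 0.0607). That smaller rise was no longer called without replicate 2 or 3 of the MYC livers or without either MYC control, with adjusted p of 0.0842, 0.108, 0.253 and 0.117, nor with the replicate number as a block (adjusted p = 0.0681).

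Lamb1, the more widespread beta chain, had 15.8 and 16.8 CPM in the 2-week and 9.66, 30.2 and 16.2 CPM in the 4-week YAP livers, against 22.7 and 28.4 CPM in YAP controls. MYC livers had 20.5, 11.2 and 13.9 CPM, against 21.2 and 25.5 CPM in MYC controls. Neither Lamb1 nor Lamb3, a partner of Lama3, was called in any comparison. Lamb3 stayed between 0.354 and 4.95 CPM in all libraries.

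The gamma chains Lamc1 and Lamc3 rose at both YAP times and were not called under MYC. Lamc1, the gamma chain of most laminins, had 82.1 and 97.3 CPM in the 2-week YAP livers and 111, 80.8 and 76.9 CPM in the 4-week YAP livers, against 34.2 and 40.5 CPM in YAP controls. It rose by 1.26 ± 0.22 log2 units at 2 weeks (adjusted p = 0.00179) and 1.26 ± 0.20 at 4 weeks (adjusted p = 0.00103). In MYC livers it had 85.3, 78.3 and 103 CPM, against 78.5 and 71.8 CPM in MYC controls, which overlap. The MYC controls lay above the YAP controls, a difference between models that was not tested.

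Lamc3, a rarer gamma chain, had 25.9 and 37.5 CPM in the 2-week YAP livers and 64.0, 16.4 and 46.4 CPM in the 4-week YAP livers, against 1.84 and 1.70 CPM in YAP controls. It rose by 4.16 ± 0.78 log2 units at 2 weeks (adjusted p = 0.00406) and by 4.57 ± 0.77 at 4 weeks (adjusted p = 0.00189). MYC livers had 0.655, 1.05 and 3.19 CPM, against 0.972 and 0.780 CPM in MYC controls.

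The make-up of the alpha and beta chain classes within a library does not depend on how libraries are scaled. For it, CPM were divided by the kilobases of exon of each gene. Of the summed laminin alpha level per kilobase, Lama5 made up 83.1% ± 4.18 (SD, n = 2) in 2-week YAP livers and 88.5% ± 5.08 (n = 3) in 4-week YAP livers, against 9.49% ± 2.79 (n = 2) in YAP controls. Lama3 made up 0.977% ± 0.970 and 1.07% ± 0.157 at the same times, against 36.2% ± 3.24 in YAP controls. In MYC livers the share of Lama5 was 44.1% ± 13.8 (n = 3), against 17.7% ± 2.95 (n = 2) in MYC controls, and that of Lama3 4.16% ± 1.68, against 30.1% ± 1.64. The libraries of induced and control groups did not overlap in any of these shares. Shares within a class are tied, so a lower Lama3 level raises the shares of the other alpha chains. Under MYC the level of Lama5 itself was not called.

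Among beta chains, Lamb2 made up 92.1% ± 0.810 of the level per kilobase in 2-week and 90.4% ± 6.16 in 4-week YAP livers, against 32.5% ± 1.72 in YAP controls. It made up 63.7% ± 14.3 in MYC livers, against 36.9% ± 2.63 in MYC controls. The lowest MYC library, at 47.2%, lay above the higher MYC control, at 38.7%.

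Summed per kilobase, the beta chains reached 22.4 to 24.0 CPM per kilobase at 2 weeks and 21.8 to 28.5 at 4 weeks, against 3.71 to 5.39 in YAP controls. The alpha chains summed to 10.3 to 15.3 and 14.3 to 18.7, against 4.40 to 5.28 CPM per kilobase. In MYC livers the alpha sum was 2.60 to 4.88, against 5.12 to 5.26 CPM per kilobase in MYC controls. Summed without the division by length, the alpha chains overlapped there, at 32.4 to 59.78 CPM in MYC livers against 59.73 to 61.3 CPM in MYC controls.

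**Figure D3:**
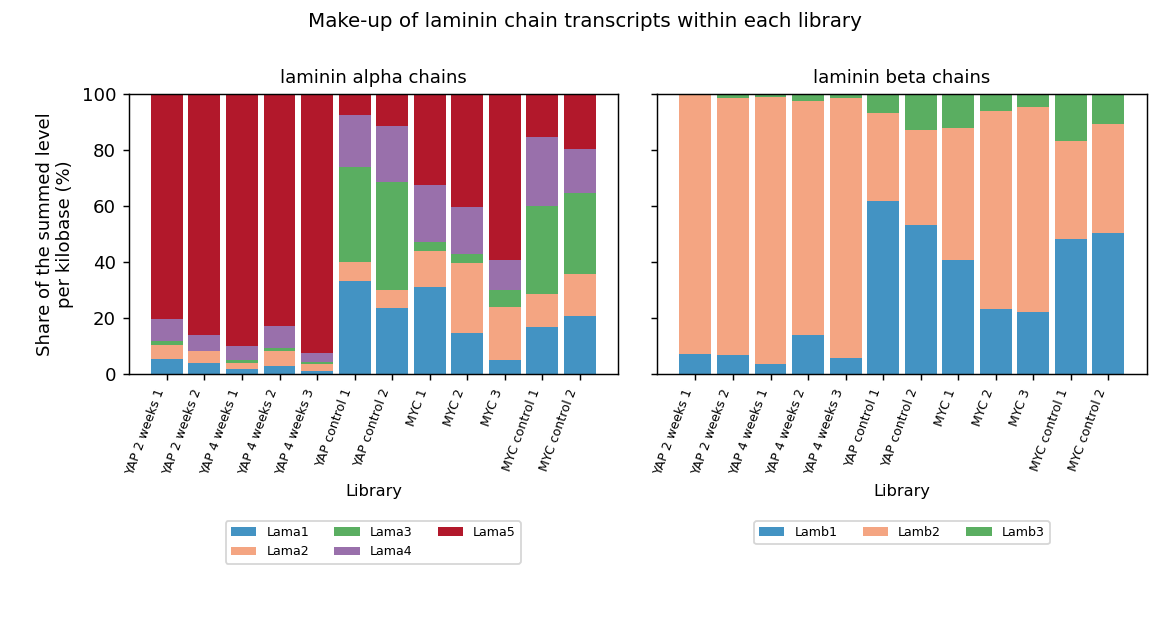
Share of each laminin alpha and beta chain (stacked colours) in the summed level per kilobase of its class, in percent, for each of the 12 libraries. Lama5 takes 80.1% to 92.5% of the alpha bar in the 5 induced YAP libraries and 7.52% to 11.5% in the YAP controls, and the green band of Lama3 is wide in the 4 control libraries of both models and thin in all induced ones.

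Of the 3 integrin alpha subunits best known as laminin receptors, Itga3 moved in opposite directions in the models, Itga6 rose in both, and Itga7 was not called. Itga3, which pairs with Itgb1 to form a laminin receptor (GRCm38 chr11:95044474-95076801, minus strand), had 67.7 and 91.9 CPM in the 2-week YAP livers and 101, 74.7 and 133 CPM in the 4-week YAP livers, against 11.6 and 11.7 CPM in YAP controls. MYC livers had 4.82, 1.54 and 1.86 CPM, against 10.2 and 9.82 CPM in MYC controls. Every induced YAP library lay above its controls and every MYC library below its own. Itga3 rose by 2.78 ± 0.45 log2 units at 2 weeks (adjusted p = 0.00157) and 3.15 ± 0.43 at 4 weeks (adjusted p = 0.000571), and fell by 1.85 under MYC (SE 0.41, adjusted p = 0.0131). The MYC call was lost without either MYC control (adjusted p = 0.0815 without replicate 1, 0.0731 without replicate 2), and without replicate 1 of the MYC livers the value was -2.54.

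Itga6, a laminin receptor with Itgb1 or Itgb4, rose in all 3 comparisons. It had 15.7 and 35.2 CPM at 2 weeks and 21.7, 34.9 and 28.8 CPM at 4 weeks of YAP, against 5.22 and 4.77 CPM in YAP controls, a rise of 2.35 ± 0.37 (adjusted p = 0.00114) and 2.51 ± 0.35 log2 units (adjusted p = 0.000499). With the sex term the 4-week value was 1.34 and not called (adjusted p = 0.142). The 2-week value was 1.65 with that term and 1.66 without replicate 2, and both rest on replicate 1 of the 2-week livers. In MYC livers the levels were 11.6, 11.8 and 11.3 CPM, against 6.45 and 4.60 CPM in MYC controls, a rise of 1.06 ± 0.33 (adjusted p = 0.0475). Leaving out any 1 of those 5 libraries ended the MYC call, with adjusted p from 0.0617 to 0.284, as did the replicate block (adjusted p = 0.0759). The MYC and 4-week YAP effects on Itga6 differed by an uncalled -1.44 ± 0.47 log2 units (adjusted p = 0.0843).

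Itgb4, the hemidesmosome subunit that binds laminin with Itga6, had 7.44 and 11.6 CPM at 2 weeks and 6.29, 33.3 and 47.2 CPM at 4 weeks, against 1.84 and 2.97 CPM in YAP controls. It rose by 3.59 ± 0.85 log2 units at 4 weeks (adjusted p = 0.00997), and its 1.99 ± 0.85 at 2 weeks was not called (adjusted p = 0.108). The 4-week call was lost without replicate 1 (adjusted p = 0.0872) or replicate 2 (adjusted p = 0.0601) of the YAP controls, and with the sex term, at 2.95 (adjusted p = 0.312). With the replicate block the value was 2.94 and called (adjusted p = 0.0163). Replicate 1 of the 4-week livers, low in bile duct markers, was also the library lowest in Itgb4. MYC livers had 1.97, 0.841 and 3.31 CPM, against 0.972 and 0.702 CPM in MYC controls, with no call.

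Itga7, a laminin receptor best known from muscle, had 14.3 CPM in both 2-week YAP livers and 7.05 to 15.2 CPM in the 4-week YAP livers, against 9.18 and 10.3 CPM in YAP controls, with no call at either time. It had 3.75, 0.491 and 0.232 CPM in MYC livers, against 9.19 and 7.72 CPM in MYC controls; the difference of -2.48 ± 0.79 log2 units was not called (adjusted p = 0.0534). Skeletal muscle markers (20 genes) summed to 1182 to 1259 CPM in the 2-week YAP livers and 33.7 to 88.5 CPM in the 4-week YAP livers, against 185 to 202 CPM in YAP controls. Their part in the level of Itga7 was not tested.

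Itgb1, the beta partner of the laminin and collagen receptors, was the highest member per kilobase in each group mean, and with TMM scaling no change of it was called. It had 336 and 353 CPM at 2 weeks and 369.9, 308 and 282 CPM at 4 weeks, against 395 and 294 CPM in YAP controls. MYC livers had 276, 254 and 210.4 CPM, against 290.3 and 284 CPM in MYC controls. Its log2 fold changes were -0.00 ± 0.22, -0.11 ± 0.20 and -0.22 ± 0.20 at 2 weeks, at 4 weeks and under MYC, none of them called. Under total-count scaling the 4-week value turned to 0.62 and was called (adjusted p = 0.0177), below the median of 0.91 over all genes with that scaling. Its share of the summed integrin beta level per kilobase was 64.5% ± 2.36 at 2 weeks and 67.8% ± 3.14 at 4 weeks, against 80.0% ± 3.83 in YAP controls, and 68.1% ± 5.05 in MYC livers, against 79.9% ± 1.68 in MYC controls.

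**Figure D4:**
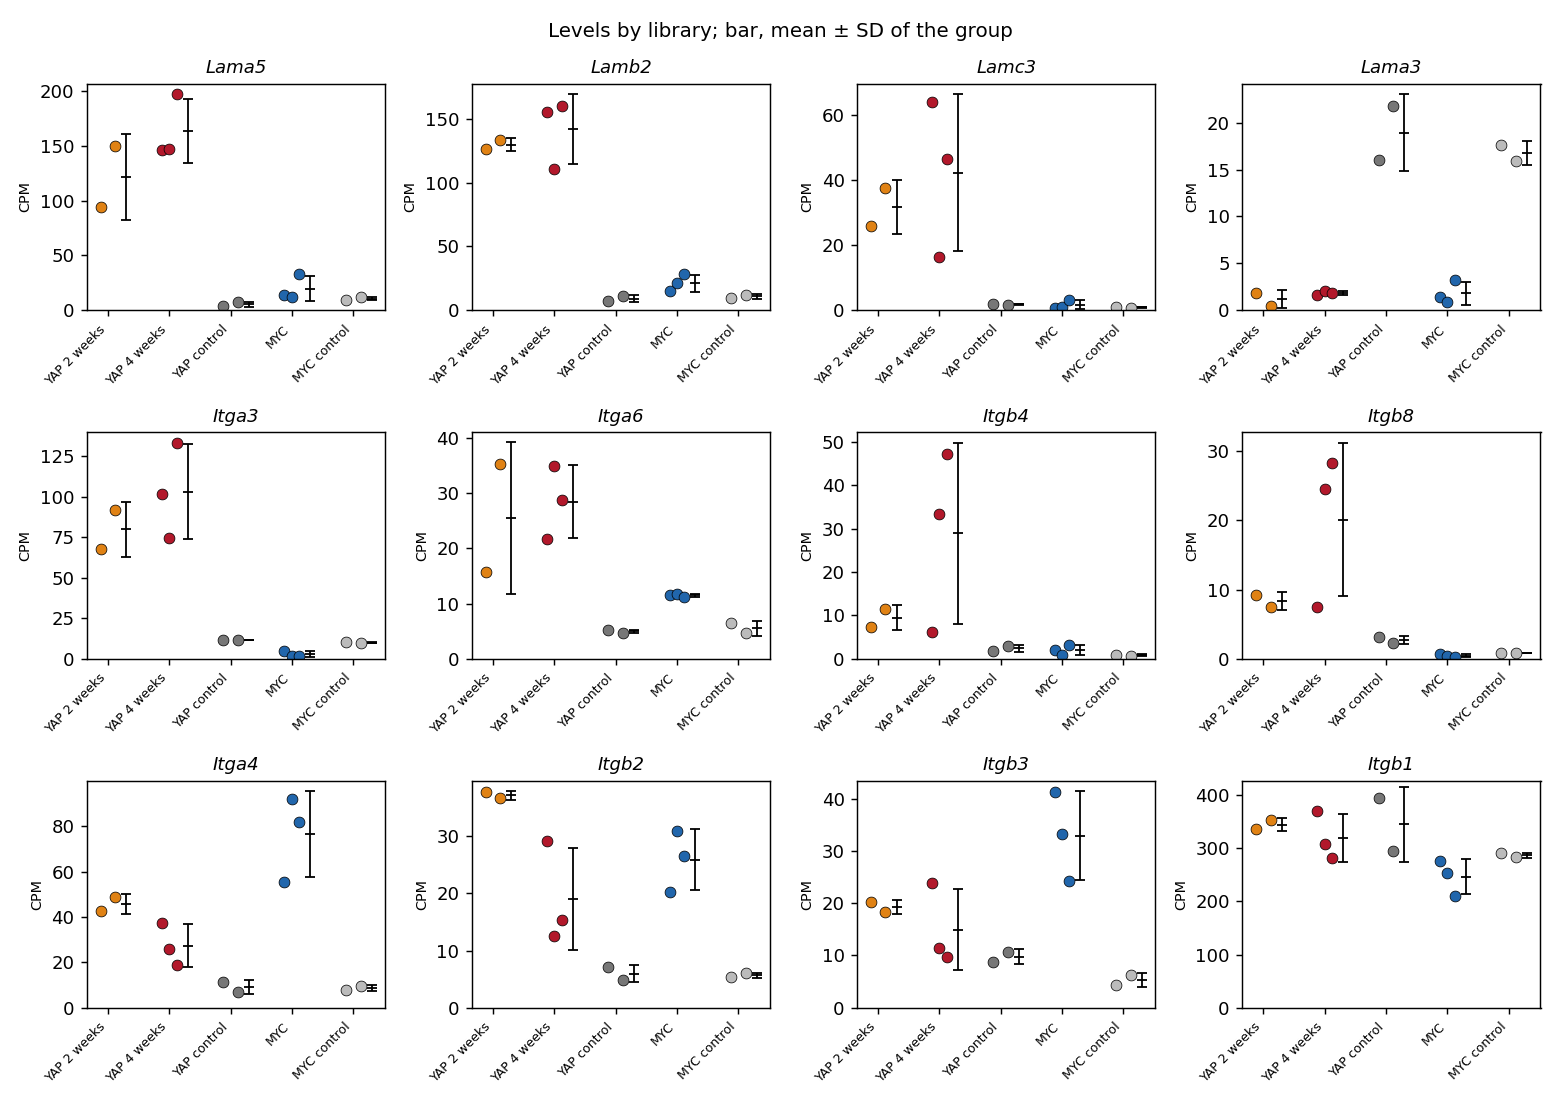
TMM-scaled CPM of 12 subunits in each library (points), with the mean and standard deviation of each group beside them; each panel has its own vertical scale starting at 0. Lama5, Lamb2, Lamc3 and Itga3 are high in the 5 induced YAP libraries, Lama3 is high in the 4 control libraries, Itga4 and Itgb3 are highest in MYC livers, and Itgb1 overlaps between induced and control YAP livers.

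Of the 4 collagen-binding alpha subunits, Itga2, found on epithelium and platelets, changed most. It had 1.42 and 2.27 CPM at 2 weeks and 1.59, 11.5 and 6.17 CPM at 4 weeks, against 0.580 and 0 CPM in YAP controls. It rose by 4.39 ± 1.04 log2 units at 4 weeks (adjusted p = 0.00832), a call lost without replicate 2 of the YAP controls (log2 value 3.45, adjusted p = 0.0575), the library with no count. The 6 counts of the controls all lie in replicate 1, so without it the fitted value of 9.59 is set against 0 counts and is not a fold change to be read. Without replicate 2 of the 4-week livers the value was 3.67 and called (adjusted p = 0.0202), and with the sex term 3.71 and not called (adjusted p = 0.282). The 2.60 ± 1.08 at 2 weeks was not called (adjusted p = 0.0952). MYC livers had 1.97, 1.54 and 2.84 CPM, against 0.707 and 0.858 CPM in MYC controls, with no call.

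Itga11, a collagen receptor of fibroblasts, was low throughout, at 1.27, 1.26 and 0.723 CPM in 4-week YAP livers against 0.193 and 0.318 CPM in YAP controls. Its rise of 2.06 ± 0.73 log2 units was called at the edge of the threshold (adjusted p = 0.0499) and was lost on leaving out any 1 of the 5 libraries (adjusted p from 0.0597 to 0.209) and with the replicate block (adjusted p = 0.0649). DESeq2 did not call Itga11 (adjusted p = 0.0531), nor did edgeR without the low-count filter (adjusted p = 0.154) or with only the groups compared (adjusted p = 0.0833). Of 12 alternatives only 1, total-count scaling, called it. With the sex term the value was 1.03 (adjusted p = 0.696). At 2 weeks it had 0.496 and 1.02 CPM, and under MYC 0.417, 0.561 and 0.348 CPM against 0.707 and 0.390 CPM in MYC controls, without a call. Itga1, the most abundant of the 4, lay between 47.3 and 104 CPM in all libraries and was not called in any comparison. Itga10 was at most 0.795 CPM, and 33.5% of its exonic bases are shared with Gm42957 on the same strand, so its counts are uncertain.

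The sum of bile duct markers (18 genes) lay higher in the induced YAP livers, as did the epithelial subunits Itgb4, Itga2, Itga6 and Itgb8. Of these 4 subunits only Itga6 was called at 2 weeks. The epithelial chain Lama3 fell at both times, and Lamb3 was not called. The markers summed to 890 to 1574 CPM in the 2-week YAP livers and 779.7 to 3780 CPM in the 4-week YAP livers, against 286 to 330.4 CPM in YAP controls. In MYC livers they summed to 181 to 286 CPM, against 199 to 219 CPM in MYC controls, so the groups overlapped there, while Itga6 was called higher. Of the 17 tested marker genes, 5 were called higher at 2 weeks (29.4%, beside 15.1% of all genes), 10 at 4 weeks (58.8%, beside 18.1%) and 1 under MYC (5.88%, beside 9.76%), and none lower. Not every marker followed the sum. Krt19 averaged 5.02 CPM at 2 weeks and 13.2 CPM at 4 weeks, against 7.62 CPM in YAP controls. Krt7 had 1.35 to 4.66 CPM at 2 weeks, against 1.70 to 2.32 CPM in YAP controls. Epcam had 0.953 to 31.9 CPM at 4 weeks, against 1.06 to 1.55 CPM in YAP controls. Sctr and Ggt1 were at 0 in the YAP controls. The part of these cells in the subunit levels was not tested.

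Among subunits that bind the RGD peptide of matrix proteins, Itgb8, a partner of Itgav that activates latent TGF-beta, rose at 4 weeks. It had 9.28 and 7.41 CPM at 2 weeks and 7.496, 24.5 and 28.2 CPM at 4 weeks, against 3.19 and 2.33 CPM in YAP controls. The rise was 2.86 ± 0.55 log2 units at 4 weeks (adjusted p = 0.00285), and the 1.59 ± 0.56 at 2 weeks just missed the threshold (adjusted p = 0.0548). MYC livers had 0.655, 0.421 and 0.232 CPM, against 0.884 and 0.858 CPM in MYC controls, 21 counts in each group.

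Itgb5, another partner of Itgav and a vitronectin receptor, had 108.5 and 90.5 CPM at 2 weeks and 77.5, 75.6 and 74.8 CPM at 4 weeks, against 55.6 and 58.2 CPM in YAP controls. It rose at 2 weeks by 0.80 ± 0.23 log2 units (adjusted p = 0.0225), and the call was lost without replicate 1 of the 2-week livers (adjusted p = 0.106) or without either YAP control (adjusted p = 0.113 and 0.0918). At 4 weeks 0.42 ± 0.21 was not called (adjusted p = 0.145), though all 3 libraries lay above the controls. MYC livers had 40.8, 36.5 and 60.4 CPM, against 56.7 and 44.6 CPM in MYC controls.

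Itgav had the highest level per kilobase of the alpha subunits when the 5 group means were averaged (9.20 CPM per kilobase), and in the YAP and MYC controls. Itga3 stood above it in 2-week and 4-week YAP livers, with means of 13.98 and 18.0 against 11.2 and 11.7 CPM per kilobase for Itgav, and Itga5 in MYC livers, with 11.2 against 6.19 CPM per kilobase. Itgav had 114 and 126.8 CPM at 2 weeks and 109.5, 159 and 109 CPM at 4 weeks, against 95.4 and 88.2 CPM in YAP controls. It had 52.3, 57.6 and 89.5 CPM in MYC livers, against 99.8 and 80.5 CPM in MYC controls, and was called in no comparison. Itga8, an RGD receptor of stromal cells, was not called either, at 2.99 to 24.4 CPM over all libraries. Itga5, the fibronectin receptor, had 26.2 and 44.5 CPM at 2 weeks and 41.0, 46.9 and 44.8 CPM at 4 weeks, against 22.1 and 27.7 CPM in YAP controls. It rose by 0.83 ± 0.22 log2 units at 4 weeks (adjusted p = 0.0146), a call lost without replicate 1 of the YAP controls (adjusted p = 0.123). With the sex term the 4-week value was 0.07 (adjusted p = 0.952). MYC livers had 55.0, 48.2 and 62.7 CPM, against 30.8 and 31.9 CPM in MYC controls, a rise of 0.82 ± 0.22 (adjusted p = 0.0249) that was lost without replicate 3 of the MYC livers (adjusted p = 0.0693) or either MYC control (adjusted p = 0.164 and 0.131).

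The pair Itga2b and Itgb3, the fibrinogen receptor of platelets, rose in MYC livers. Itgb3 had 41.2, 33.3 and 24.1 CPM there, against 4.42 and 6.32 CPM in MYC controls, a rise of 2.61 ± 0.41 log2 units (adjusted p = 0.00220). Itga2b had 14.6, 9.60 and 8.53 CPM, against 3.18 and 2.495 CPM in MYC controls, a rise of 1.94 ± 0.57 (adjusted p = 0.0361). The call of Itgb3 was made in every fit that left out 1 library, and that of Itga2b in none of them (adjusted p from 0.0528 to 0.210), nor with the replicate block (adjusted p = 0.0715).

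In the YAP model Itgb3 had 20.3 and 18.4 CPM at 2 weeks and 23.8, 11.4 and 9.62 CPM at 4 weeks, against 8.70 and 10.7 CPM in YAP controls, with no call. Itga2b had 1.70 and 3.53 CPM and 2.67, 5.33 and 6.12 CPM at those times, against 3.67 and 0.955 CPM in YAP controls. Of 13 platelet and megakaryocyte markers, 12 were called higher under MYC (92.3%, beside 9.76% of all genes). The 13 summed to 94.7 to 179 CPM in MYC livers, against 16.0 to 16.3 CPM in MYC controls. They summed to 69.2 to 74.8 and 34.6 to 65.5 CPM at 2 and 4 weeks of YAP, against 20.5 to 23.7 CPM in YAP controls. Their part in the levels of this pair was not tested.

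Of the integrins known from leukocytes, Itgb2 and Itga4 rose in both models. Itgal rose at both YAP times, Itgae at 4 weeks of YAP and Itgad under MYC, and Itgb7 was not called. Itgb2, the beta subunit shared by leukocyte integrins, had 37.7 and 36.6 CPM at 2 weeks and 29.2, 12.6 and 15.3 CPM at 4 weeks, against 7.05 and 4.88 CPM in YAP controls. MYC livers had 20.3, 30.8 and 26.5 CPM, against 5.39 and 6.004 CPM in MYC controls. The rises were 2.63 ± 0.38 (adjusted p = 0.000774), 1.67 ± 0.36 (adjusted p = 0.00487) and 2.18 ± 0.36 log2 units (adjusted p = 0.00280). The 4-week call was lost without replicate 2 of the YAP controls (adjusted p = 0.0581).

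Itga4, which binds VCAM1 and fibronectin, was the integrin alpha gene with the smallest adjusted p under MYC. It had 55.3, 91.9 and 82.0 CPM in MYC livers, against 7.78 and 9.59 CPM in MYC controls, a rise of 3.13 ± 0.36 log2 units (adjusted p = 0.000533). At 2 weeks of YAP it had 42.6 and 48.7 CPM and at 4 weeks 37.3, 26.0 and 18.7 CPM, against 11.4 and 6.79 CPM in YAP controls, rises of 2.32 ± 0.36 (adjusted p = 0.00114) and 1.58 ± 0.34 (adjusted p = 0.00496). The 4-week call was lost without replicate 2 of the YAP controls (adjusted p = 0.0584). Cerkl, transcribed from the other strand, shares 8.04% of the exonic bases of Itga4, and its mean was 11.3 CPM in MYC livers against 1.59 CPM in MYC controls; the strand setting of the counting is not given in the sources used here.

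Itgal, which forms LFA-1 with Itgb2, had 74.4 and 61.8 CPM at 2 weeks and 46.2, 23.2 and 18.8 CPM at 4 weeks, against 15.0 and 14.9 CPM in YAP controls. It rose by 2.19 ± 0.36 log2 units at 2 weeks (adjusted p = 0.00155) and 0.98 ± 0.33 at 4 weeks (adjusted p = 0.0402). In a fit of only the groups compared the 4-week rise was not called (adjusted p = 0.121). Without replicate 1 of the 4-week livers the later value was 0.49 and no longer called (adjusted p = 0.0766), and leaving out replicate 1 or 2 of the YAP controls ended it too (adjusted p = 0.154 and 0.161). MYC livers had 24.2, 19.7 and 18.5 CPM, against 10.96 and 13.2 CPM in MYC controls, and 0.78 ± 0.33 was not called (adjusted p = 0.121).

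Itgad, a partner of Itgb2 on myeloid cells, was read in MYC livers at 1.19, 6.52 and 7.02 CPM (234 counts) and not at all in MYC controls. Set against a floor of 3 counts per library, it was at least 19.7-fold higher in MYC livers, and the call (adjusted p = 0.0122) was lost without either MYC control (adjusted p = 0.0827 without replicate 1, 0.0837 without replicate 2). In the YAP model it had 3 counts at 2 weeks, 2 at 4 weeks and 0 in YAP controls. Of its exonic bases, 7.32% are shared with Gm17831 on the same strand, which had 0 counts, 8.60% lie opposite 4931431B13Rik, which had 2, and 1.55% opposite Cox6a2, which averaged 0.296 CPM in MYC livers against 0.0390 CPM in MYC controls.

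Itga9, a receptor for tenascin and VCAM1, had 72.3 and 68.0 CPM at 2 weeks and 60.5, 39.5 and 28.4 CPM at 4 weeks, against 32.2 and 40.9 CPM in YAP controls. Its rise of 0.94 ± 0.31 log2 units at 2 weeks (adjusted p = 0.0412) was lost on leaving out any 1 of the 4 libraries (adjusted p from 0.0890 to 0.206) and with the sex term (adjusted p = 0.111). MYC livers had 44.3, 31.5 and 29.7 CPM, against 39.2 and 41.1 CPM in MYC controls. Itgae, which binds E-cadherin on intraepithelial lymphocytes, had 0.425 and 0.717 CPM at 2 weeks and 0.953, 1.55 and 1.28 CPM at 4 weeks, against 0.290 and 0 CPM in YAP controls. The 4-week call (adjusted p = 0.0219) rests on 65 counts against 3, a scaled ratio of 8.37 with an exact 95% counting interval of 2.74 to 41.6, and was lost without replicate 2 of the 4-week livers (adjusted p = 0.0532), without replicate 2 of the YAP controls (adjusted p = 0.103) and with the replicate block (adjusted p = 0.0543). Its fitted log2 value of 3.005 was 2.09 without replicate 2 of the YAP controls and 2.26 with the sex term (adjusted p = 0.443); without replicate 1 it is set against 0 counts. A fit of only the groups compared did not call Itgae at 4 weeks (adjusted p = 0.0691). In MYC livers Itgae had 0.774, 1.05 and 0.929 CPM, against 0.707 and 0.468 CPM in MYC controls. Itgb7, its partner, was called in no comparison, at 0.386 to 3.77 CPM.

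Summed markers of myeloid cells were higher in all 3 comparisons, and those of lymphocytes, low throughout, in part of them. Monocyte and recruited macrophage markers (13 genes) summed to 461 to 559 CPM at 2 weeks and 314 to 352 CPM at 4 weeks, against 70.3 to 82.6 CPM in YAP controls, and to 321 to 501 CPM in MYC livers, against 58.7 to 59.3 CPM in MYC controls. Of the 13, 12 were called higher at each YAP time (92.3%, beside 15.1% and 18.1% of all genes) and 10 under MYC (76.9%, beside 9.76%). Under MYC 1 was lower (7.69%, beside 8.56%). Ly6c2 was at 0 in YAP controls, and Trem2 and Ms4a7 in MYC controls. Neutrophil markers (14 genes) summed to 40.5 to 252 and 74.3 to 198 CPM at 2 and 4 weeks, against 5.30 to 8.41 CPM in YAP controls, and to 813 to 1599 CPM in MYC livers, against 6.89 to 7.64 CPM in MYC controls. Of 12 tested T and NK cell markers, 3 were called higher at 2 weeks (25.0%), 3 higher and 1 lower at 4 weeks (25.0% and 8.33%, where 15.7% of all genes were lower), and 1 higher under MYC (8.33%). Of 10 B cell markers, 1 was called higher at 2 weeks (10.0%) and none in the other comparisons. Of all genes, 15.1%, 18.1% and 9.76% were called higher at 2 weeks, at 4 weeks and under MYC. The T and NK share under MYC and all B cell shares lay below these. The part of these cells in the levels of Itgb2, Itga4, Itgal and Itgad was not tested.

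Between 4 and 2 weeks of YAP no subunit was called, where 0.0612% of all tested genes were called, all of them lower. The libraries of the 2 times did not overlap for 7 subunits, against 20.9% of all genes. Of the 34, 6 had an unadjusted p under 0.05 in edgeR's test, and DESeq2 called none either. Itgal was lower at 4 weeks by an uncalled -1.21 ± 0.31 log2 units (adjusted p = 0.389) and Itgb2 by -0.96 ± 0.32 (adjusted p = 0.578). Itgb8 was higher by 1.27 ± 0.49 (adjusted p = 0.679). Without replicate 1 of the 4-week livers 5 subunits were called: Itgal at -1.70 (adjusted p = 0.00183), Itgb2 at -1.41 (adjusted p = 0.0118) and Itga9 at -1.05 (adjusted p = 0.0314) lower at 4 weeks, and Itgb4 at 2.08 (adjusted p = 0.0367) and Itgb8 at 1.66 (adjusted p = 0.0207) higher. Kupffer cell markers (13 genes) summed to 1689 CPM in replicate 1 and to 537.5 and 684 CPM in the other two 4-week livers, and to 2068 and 2782 CPM in the 2-week livers.

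The effect of MYC differed from the effect of 4 weeks of YAP for 7 subunits, 1 higher and 6 lower, where 3.15% of all genes were called higher and 4.33% lower (7.48% in either direction). The difference is the log2 change of MYC over its controls minus that of 4 weeks of YAP over YAP controls. It was -4.999 ± 0.59 for Itga3 (adjusted p = 0.00160), -3.00 ± 0.41 for Lamb2 (adjusted p = 0.00232) and -4.03 ± 0.64 for Lama5 (adjusted p = 0.00608). These 3 were called in every fit that left out 1 library. Without replicate 1 of the MYC livers the value of Itga3 was -5.69, and without replicate 3 that of Lama5 was -4.63. Itgb8 differed by -3.84 ± 0.85 (adjusted p = 0.0206), Lamc1 by -1.02 ± 0.27 (adjusted p = 0.0462) and Itgb3 by 1.99 ± 0.53 (adjusted p = 0.0461).

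The calls of Itgb8, Itgb3 and Lamc1 rested on more of the libraries. Itgb8 lost its call without any 1 of the 4 control libraries (adjusted p from 0.0645 to 0.0951). Itgb3 and Lamc1 each lost it without any 1 of 8 libraries, namely replicates 1 and 2 of the MYC livers, replicates 2 and 3 of the 4-week livers and all 4 controls, with adjusted p from 0.0662 to 0.175 for Itgb3 and 0.0501 to 0.164 for Lamc1, and Lamc1 also with the replicate block (adjusted p = 0.0689). In a fit of only the groups compared Itgb3 (adjusted p = 0.0630) and Lamc1 (adjusted p = 0.0538) were not called. With a sex term none of the 7 was called (adjusted p from 0.0692 for Itga3 to 0.439 for Lamc1), while all 7 kept their direction. Lama3, lower in both models, differed by 0.15 ± 0.74 log2 units (adjusted p = 0.941).

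**Figure D5:**
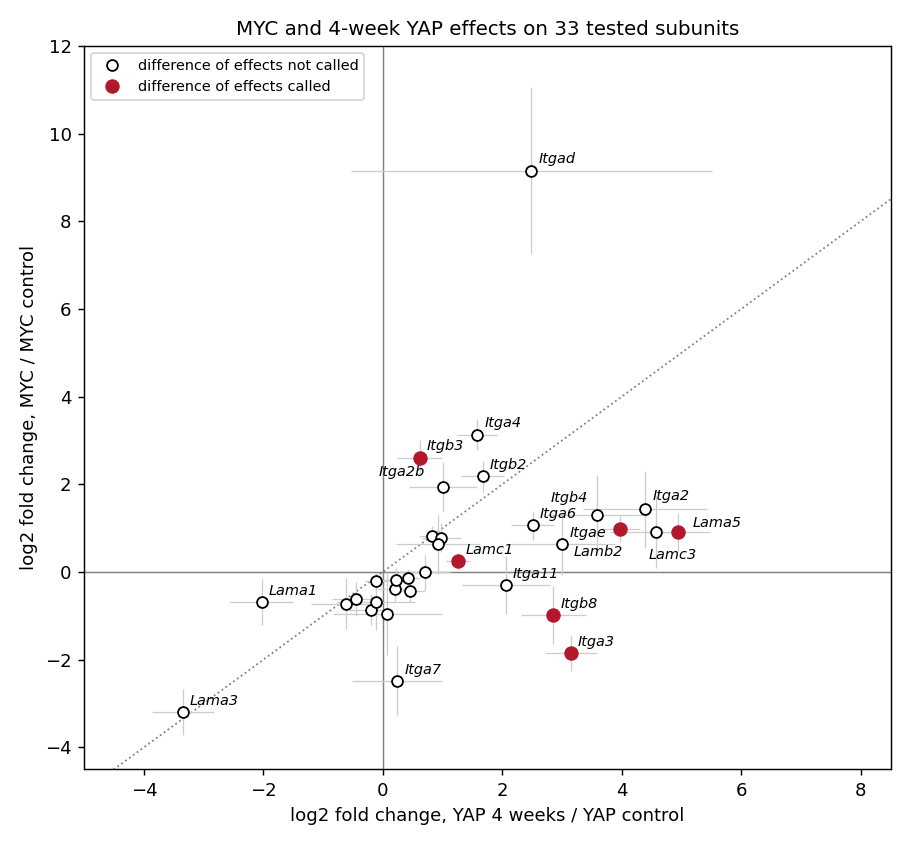
log2 fold change with standard error of 33 tested subunits at 4 weeks of YAP over YAP controls (horizontal) and under MYC over MYC controls (vertical); the dotted line marks equal change. Red points are 6 subunits whose change differed between models: Itga3, Lama5, Lamb2, Lamc1 and Itgb8 lie right of the line and Itgb3 left of it, and Lama3 lies near it. The position of Itgad is a fitted value against controls with 0 counts.

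Genes around the laminins and integrins were read from 4 lists, which were also chosen with earlier results of these data known. Over all tested genes, 15.1% were called higher and 12.7% lower at 2 weeks, 18.1% and 15.7% at 4 weeks, and 9.76% and 8.56% under MYC. Of the 33 basement membrane components outside the laminins, 12 were higher and 3 lower at 2 weeks (36.4% and 9.09%), 14 higher and 2 lower at 4 weeks (42.4% and 6.06%), and 1 higher and 7 lower under MYC (3.03% and 21.2%). Nid1, which links laminin to collagen IV, averaged 627 ± 23.8 CPM (SD, n = 2) at 2 weeks and 451 ± 217 CPM (n = 3) at 4 weeks, against 22.9 ± 3.37 CPM (n = 2) in YAP controls, rises of 4.78 ± 0.40 (SE, adjusted p = 5.79e-05) and 4.30 ± 0.38 log2 units (adjusted p = 4.78e-05). Agrn, the proteoglycan agrin, averaged 188 ± 41.7 and 258 ± 69.6 CPM at the 2 times, against 39.5 ± 3.97 CPM in YAP controls, rises of 2.25 and 2.71 log2 units. Papln fell to 1.28 ± 0.291 and 1.402 ± 0.493 CPM, against 6.89 ± 0.455 CPM in YAP controls, and Fras1, which joins epithelium to the underlying tissue, to 3.34 ± 0.491 and 6.51 ± 3.37 CPM, against 21.5 ± 6.498 CPM in YAP controls, its 4-week call being lost without replicate 2 of the YAP controls (adjusted p = 0.0949).

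In MYC livers the same list moved the other way in most of its calls. Pxdn, which crosslinks collagen IV, fell to 16.9 ± 3.88 CPM (n = 3), against 39.9 ± 0.837 CPM (n = 2) in MYC controls (adjusted p = 0.00423), and Col4a3 to 1.23 ± 0.563 CPM, against 4.91 ± 0.444 CPM in MYC controls (adjusted p = 0.00516). The 1 that rose, Smoc2, reached 25.4 ± 6.45 CPM, against 4.67 ± 0.348 CPM in MYC controls, and lost its call in 4 of the 5 fits that left out 1 library, those without replicate 2 or 3 of the MYC livers or either control (highest adjusted p = 0.156). The list's median log2 change was 0.87, 0.79 and -0.53 at 2 weeks, at 4 weeks and under MYC. Total-count scaling gave 2 higher and 4 lower under MYC.

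Of 47 focal adhesion adaptors and kinases, the proteins that tie integrins to actin, 23 were higher and none lower at each YAP time (48.9%, beside 15.1% and 18.1% of all genes called higher at 2 and 4 weeks), and 8 were higher and 8 lower under MYC (17.0% each, beside 9.76% and 8.56% of all genes). Under total-count scaling 38 were higher at 2 weeks and 39 at 4 weeks, where 5228 and 7863 of all 17964 tested genes were, and the MYC split was 17 higher and 4 lower. Parvg and Fermt3, the forms of parvin and kindlin found in blood cells, led the list at 2 weeks, at 3.32 ± 0.886 CPM in 2-week livers against 0.299 ± 0.123 CPM in YAP controls for Parvg and 23.5 ± 4.11 against 4.51 ± 1.28 CPM for Fermt3. They led under MYC as well, at 7.96 ± 1.30 CPM in MYC livers against 0.993 ± 0.0292 CPM in MYC controls for Parvg and 35.4 ± 6.44 against 4.09 ± 0.282 CPM for Fermt3. At 4 weeks Trip6, a zyxin family adaptor, averaged 31.5 ± 3.83 CPM, against 11.2 ± 3.24 CPM in YAP controls, beside Parvg at 2.90 ± 0.694 CPM, against 0.299 ± 0.123 CPM in YAP controls. Fermt2, the kindlin of most other cells, fell under MYC to 80.5 ± 30.0 CPM, against 277 ± 27.9 CPM in MYC controls (adjusted p = 0.00271), and the kinase Ptk2b to 15.4 ± 1.84 CPM, against 44.4 ± 2.58 CPM in MYC controls (adjusted p = 0.000506).

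Of 35 tested integrin ligands outside the laminins, 12 were higher and 3 lower at 2 weeks (34.3% and 8.57%, beside 15.1% and 12.7% of all genes), 15 higher and 4 lower at 4 weeks (42.9% and 11.4%, beside 18.1% and 15.7%), and 7 higher and 6 lower under MYC (20% and 17.1%, beside 9.76% and 8.56%). Total-count scaling gave 18 higher and 2 lower at 4 weeks and 8 higher and 2 lower under MYC. Mfge8, an RGD ligand of Itgav, averaged 101 ± 3.59 CPM at 2 weeks and 131 ± 48.6 CPM at 4 weeks, against 7.005 ± 2.255 CPM in YAP controls, and 48.8 ± 6.32 CPM in MYC livers, against 6.98 ± 0.377 CPM in MYC controls. Tgfb2 averaged 31.5 ± 2.46 and 38.4 ± 14.4 CPM at the YAP times, against 1.82 ± 0.0228 CPM in YAP controls. The fibrinogen chain genes Fga and Fgg fell at both times, Fga to 3187 ± 84.4 and 2938 ± 672 CPM, against 8546 ± 106 CPM in YAP controls, and Fgg to 1869 ± 80.4 and 1772 ± 555 CPM, against 5416 ± 367 CPM in YAP controls. The call of Fgg at 2 weeks was lost without replicate 1 or 2 of the 2-week livers or replicate 1 of the YAP controls (highest adjusted p = 0.0554).

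Under MYC, Vcam1, a ligand of Itga4 and Itga9, rose to 232 ± 83.3 CPM, against 18.7 ± 1.89 CPM in MYC controls, by 3.63 ± 0.36 log2 units (adjusted p = 0.000280). Cyr61, a matrix protein that binds several integrins and a gene known to respond to YAP, fell to 2.30 ± 0.604 CPM, against 23.4 ± 7.23 CPM in MYC controls (adjusted p = 0.000428). Adam9 fell to 43.6 ± 3.59 CPM, against 85.9 ± 9.01 CPM in MYC controls, a call lost without replicate 1 of the MYC controls (adjusted p = 0.0731).

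Of 21 tested other laminin receptors and hemidesmosome partners, 4 were higher and 1 lower at 2 weeks (19.0% and 4.76%), 6 higher and 2 lower at 4 weeks (28.6% and 9.52%), and 1 higher and 2 lower under MYC (4.76% and 9.52%). In either direction 27.8%, 33.8% and 18.3% of all genes were called in these comparisons, so the counts lie near the background. Under total-count scaling the counts were 9 higher and 0 lower, 13 higher and 0 lower, and 2 higher and 2 lower. Dag1, the laminin receptor dystroglycan, averaged 373 ± 71.9 CPM at 2 weeks, against 165 ± 13.04 CPM in YAP controls, a call lost without replicate 1 of the 2-week livers or of the YAP controls (highest adjusted p = 0.0736), and Sgce, of the same complex, 20.04 ± 2.185 CPM, against 3.98 ± 0.978 CPM in YAP controls. At 4 weeks Tspan3 averaged 21.5 ± 3.20 CPM, against 4.79 ± 1.03 CPM in YAP controls, and Dst, which anchors hemidesmosomes to keratin, 514 ± 58.1 CPM, against 264 ± 10.9 CPM in YAP controls. Pomt1, an enzyme that glycosylates dystroglycan, averaged 12.1 ± 2.40 CPM at 4 weeks, against 19.0 ± 2.47 CPM in YAP controls, a call lost in 4 of the 5 fits that left out 1 library, all but that without replicate 1 of the 4-week livers (highest adjusted p = 0.217).

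Sdc4, a syndecan that works with integrins at focal adhesions, was the 1 gene of this list called lower in all 3 comparisons. It averaged 309 ± 114 CPM at 2 weeks and 287 ± 41.1 CPM at 4 weeks, against 591 ± 75.5 CPM in YAP controls, and 307 ± 94.4 CPM in MYC livers, against 846 ± 12.2 CPM in MYC controls. Its YAP calls were lost without either YAP control, and at 2 weeks also without replicate 2 of the 2-week livers (highest adjusted p = 0.297 at 2 weeks and 0.113 at 4 weeks). Under MYC, Cd81 fell to 81.9 ± 26.1 CPM, against 211 ± 24.5 CPM in MYC controls, a call lost without replicate 1 of the MYC controls (adjusted p = 0.0519), and Sgce rose to 13.7 ± 6.61 CPM, against 4.76 ± 0.0118 CPM in MYC controls, a call lost in 4 of the 5 such fits, all but that without replicate 1 of the MYC livers (highest adjusted p = 0.159).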

How the data were processed

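RNA of 12 mouse liver libraries was analysed. The deposited values are read counts per gene symbol, 1 library per file and not normalized. Per the submitters' processing notes, Trim Galore 0.4.1, HISAT2 2.1.0, featureCounts 1.6.3 and DESeq2 1.20.0 are named, without their roles, with build GRCm38 (mm10). The annotation release, strand setting and handling of multi-mapped reads are not given in the sources used here, so counts of genes with overlapping exons are uncertain.

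The test was the quasi-likelihood test of edgeR 4.0.16 (R 4.3.3). The filter filterByExpr kept 17964 genes, libraries were scaled by TMM, and the robust fit had 1 mean per group over all 12 libraries. All 5 contrasts were tested with Benjamini-Hochberg adjustment over all tested genes and a threshold of 0.05. Levels are TMM-scaled CPM. Levels per kilobase were divided by exonic length (GENCODE vM21, all 35 genes matched), and shares were taken within a library. The fit was tested on simulated data in which 200 genes per contrast, none of low count, were changed by known amounts and all others left unchanged. Of those changed by 1 log2 unit, 5.97% were called in the right direction at 2 weeks, 16.4% at 4 weeks and 20.9% under MYC. Between the YAP times 19.4% were, and for the difference between models 1.49%. Over the 5 contrasts, 49.3% to 80.6% of changes of 2 log2 units were called, and 83.3% to 98.5% of 3. Far fewer genes changed there than were called against controls in the real data, which makes the adjustment stricter. These shares therefore do not give the power for the subunits, least of all for those of low count. DESeq2 1.42.0, other scalings, no filter, a replicate block, a sex-pattern term, fits of only the groups compared, and leaving out each library were alternatives. The 9 pairs of replicates differed by 12.3 to 121 times counting noise (chi-square per degree of freedom), so each was counted as a library of its own.

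The subunits and gene lists were chosen with earlier results of these data known. Values per library are given for subunits called against controls and for the 3 highest per kilobase in each subfamily. In the other contrasts the called subunits are named, and in each gene list the 2 called genes of smallest p per direction and comparison. Promoter sequences are from RefSeq (GRCm38.p6). Values of 1 subunit and 1 marker gene are not reported here, but they are part of the counts and sums. Intervals cover counting error only.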

Additional observations from a re-analysis of the deposited data

Results flagged for a closer look

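For 6 subunits described here the response to MYC differed from the response to 4 weeks of YAP by a test of the difference itself (edgeR's quasi-likelihood test, adjusted over all tested genes). The difference, the log2 change under MYC minus that at 4 weeks of YAP, was -4.999 for Itga3, -4.03 for Lama5, -3.00 for Lamb2, -3.84 for Itgb8, -1.02 for Lamc1 and 1.99 for Itgb3. For Itga3 the responses were opposite in direction, and both were called. For Lamb2 both were rises of unequal size. The MYC calls of Itga3 and Lamb2 were each lost in some fits that left out 1 library. Lama5, Lamc1 and Itgb8 were called under YAP and not under MYC, and Itgb3 under MYC and not under YAP. With a sex term none of the 6 differences was called. Those of Itgb8, Lamc1 and Itgb3 were also lost in some fits that left out 1 library. The models differ in age, and the 4-week YAP livers differ from all MYC-model livers in sex pattern; these cannot be told apart from the transgene. Groups of 2 or 3 libraries give little ground to tell an outlying library from the spread of its group.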

How the results depend on the processing

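The groups hold 2 or 3 libraries each, which limits every result. All called subunits kept their direction under every alternative, but calls were lost where sex pattern entered the fit: 2 of the 18 calls remained at 4 weeks of YAP, with 2 subunits called in all, and 0 were called for the difference between MYC and YAP. In a fit of only the groups compared, 20 subunits were called at 2 weeks (16 higher, 4 lower), against 13 with all 12 libraries in the fit. Leaving out 1 library gave 11 to 13 calls at 2 weeks, 11 to 17 at 4 weeks, 4 to 10 under MYC, 0 to 5 between the YAP times and 3 to 10 for the difference between models. Counts moved by over 1.5 times without replicate 2 of the YAP controls at 4 weeks (11 calls), without replicate 3 of the MYC livers (6) or either control (4 each) under MYC, without replicate 1 of the 4-week livers between the YAP times (5), and for the difference without either YAP control (3 each) or replicate 1 (4) or 2 (3) of the MYC controls. Where 1 control was left, it was assumed to vary like the other groups. Total-count scaling turned 1 result round, Itgb1 at 4 weeks, at 0.62 log2 units, against -0.11 with TMM. Of the other log2 results under alternatives, 1631 stayed on their side of the threshold, 108 passed it no longer and 45 passed it newly; the cause was not tested. Chain shares, an alternative chosen after seeing the data, stayed within 1 SD for 64 values and moved further for 4, with counts not divided by length or 1 library left out.

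Same-numbered libraries of different groups showed no strong shared deviation from their group means. Correlations ran from -0.14 to 0.172 over 21 pairs, against -0.172 to 0.152 over 36 pairs of different number. In a group of 2 libraries the deviations mirror each other, so these ranges are tied and cannot tell a weak pairing from none. With the replicate block 13, 16, 7, 0 and 6 subunits were called at 2 weeks, at 4 weeks, under MYC, between the YAP times and for the difference between models.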
